A study of Mus musculus with 4 samples.

Results

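Zic2, Pou3f1, Otx2, Sox3, Sox4 and Fgf5 are genes used to describe the formative epiblast, and their probe sets were followed over the 4 arrays of the series. A probe set was taken when the platform annotation gave it to only 1 of these 6 genes. That rule found 10 of 12422 probe sets, array controls left out: 4 for Sox3, 2 for Sox4, 2 for Zic2, 1 for Pou3f1 and 1 for Fgf5. It gave none to Otx2, which is not described further. Of the 6 genes, 5 encode transcription factors, whereas Fgf5 encodes a secreted growth factor.

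Every array measured total RNA of E14tg2a, a feeder-free line of mouse embryonic stem cells. Akt12 cells, which express a constitutively active Akt kinase, were sampled after 4 days without leukemia inhibitory factor (LIF) and in 3000 U/ml LIF. Control E14tg2a cells were sampled in the same way. Each of the 4 groups is 1 array, so there is no replicate to check a difference between arrays against. The Akt form, the vector, the promoter that drives it and whether Akt12 is a single clone are not stated in the labels, and a clone's own difference from the control line cannot be told apart from that of Akt. Values below are quantile-normalized intensities without a unit. A level at or under the floor of 15.78, the 40th percentile of all values, was treated as not measured, and a fold against such a level is a bound. Quantile normalization gives the arrays a common distribution, so by construction they held near equal numbers, 7444 to 7447, of probe sets above the floor. Pou5f1, a defining gene of embryonic stem cells, was above it on all 4 arrays, at 452 in Akt12 cells without LIF and 612 in Akt12 cells with LIF, and 264 in control cells without LIF and 491 in control cells with LIF.

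In the mouse embryo the pluripotent epiblast passes from a naive state, held in culture by LIF, through a formative state towards the primed state in which it can answer signals for the germ layers. Otx2 and Pou3f1 are transcription factors of that passage, Zic2 is a zinc finger factor that binds enhancers in it, and Fgf5 is a classical marker of the epiblast after implantation. Sox3 belongs with Sox1 and Sox2 to the SoxB1 factors, which act in pluripotent and neural progenitor cells. Sox4 belongs with Sox11 and Sox12 to the SoxC factors, which act in many progenitor cells.

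The sequence upstream of the start is shown for Sox4, which was measured on all arrays, and for Fgf5, which was not measured on any. Of these genes the RefSeq promoter table (GRCm38.p6) had entries for Sox4, Fgf5 and Otx2. The 250 bases before the start of Sox4 lie at chr13:28953700-28953949 on the minus strand, and those of Fgf5 at chr5:98253934-98254183 on the plus strand. Capitals mark matches, on either strand, to the CCAAT box (CCAAT) and the GC box (GGGCGG).
Sox4: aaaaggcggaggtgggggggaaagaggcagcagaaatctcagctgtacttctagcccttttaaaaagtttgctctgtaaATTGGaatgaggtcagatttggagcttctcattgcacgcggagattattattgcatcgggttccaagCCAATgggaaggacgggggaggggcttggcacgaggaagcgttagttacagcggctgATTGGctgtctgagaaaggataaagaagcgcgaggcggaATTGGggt
Fgf5: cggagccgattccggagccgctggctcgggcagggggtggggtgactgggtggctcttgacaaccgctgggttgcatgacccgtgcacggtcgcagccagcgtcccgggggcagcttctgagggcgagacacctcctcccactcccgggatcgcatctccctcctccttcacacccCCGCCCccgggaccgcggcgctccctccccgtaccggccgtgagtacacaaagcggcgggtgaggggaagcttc
The Sox4 sequence held 4 CCAAT matches and no GC box. A CCAAT match was present in 33.8% of the 32851 promoters of that length, and 4 or more in 0.84%. The Fgf5 sequence held 1 GC box, a motif present in 32.7% of promoters, and no CCAAT box. Its GC content was 70.8%, against 50.8% for Sox4 and a median of 52.4% over all promoters. Neither window held TATAAA, the SOX motif CATTGT, the octamer ATGCAAAT, the FOXO motif TGTTTAC, the TCF/LEF motif CTTTGAT or the STAT motif TTCNNNGAA, which were present in 12.4%, 10.7%, 1.6%, 3.17%, 3.21% and 7.02% of promoters. No marked matches overlap, and the matches describe letters only.

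Sox3 and Sox4 were higher without LIF in both lines. The Sox3 probe set 103302_r_at had a level of 88.05 in Akt12 cells without LIF and 41.95 in Akt12 cells with LIF, and of 188 in control cells without LIF and 48.6 in control cells with LIF. The level was thus 2.10-fold higher without LIF in Akt12 cells and 3.88-fold higher in control cells. The probe set 103301_i_at had a level of 53.6 in Akt12 cells without LIF and 21.2 in Akt12 cells with LIF, and of 116.5 in control cells without LIF and 37.2 in control cells with LIF. That is 2.53-fold higher without LIF in Akt12 cells and 3.13-fold higher in control cells. On both probe sets the array of control cells without LIF was the highest and that of Akt12 cells with LIF the lowest. The suffix _r marks sets for which the array's maker relaxed its rules of probe choice. Both probe sets are annotated to the same sequence record, so they are not independent. The remaining Sox3 probe sets, 161276_i_at and 92264_at, did not exceed 6.05 on any array, so 2 of the 4 probe sets of Sox3 gave no level.

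Sox4 had 2 probe sets. Its probe set 160109_at had a level of 119.8 in Akt12 cells without LIF and 75.5 in Akt12 cells with LIF, and of 297 in control cells without LIF and 106 in control cells with LIF. The level was 1.59-fold higher without LIF in Akt12 cells and 2.81-fold higher in control cells. The second probe set, 101430_at, had a level of 27.2 in Akt12 cells without LIF and was not above the floor in Akt12 cells with LIF, a difference of at least 1.73-fold. It had a level of 73.6 in control cells without LIF and 37.35 in control cells with LIF, which is 1.97-fold higher without LIF. Both Sox4 probe sets were highest on the array of control cells without LIF and lowest on that of Akt12 cells with LIF, and they placed the arrays in between in opposite orders. After centring each on its mean, they differed by a root mean square of 0.29 on the log2 scale over the 4 arrays, against 0.21 for the measured pair of Sox3 and 0.83 for the pair of Zic2.

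Zic2 gave opposite pictures on its probe sets. The probe set 98843_at had a level of 73.8 in Akt12 cells without LIF and 24.45 in Akt12 cells with LIF, 3.02-fold higher without LIF. Its level was 37.2 in control cells without LIF and 36.95 in control cells with LIF, a log2 difference of 0.01. The probe set 98844_at was not above the floor in Akt12 cells without LIF and had a level of 21.3 in Akt12 cells with LIF, at least 1.35-fold lower without LIF. It had a level of 31.2 in control cells without LIF and was not above the floor in control cells with LIF, at least 1.98-fold higher. The array with the highest level on 98843_at was thus not above the floor on 98844_at, and no direction is given here for the gene Zic2.

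Pou3f1, which encodes the POU factor also called Oct6, had 1 probe set. Its level was 40.7 in Akt12 cells without LIF and not above the floor in Akt12 cells with LIF, at least 2.58-fold higher without LIF. It was 24.8 in control cells without LIF and 36.0 in control cells with LIF, which is 1.45-fold lower without LIF. The lines therefore differed in direction on this probe set, at levels within 3-fold of the floor on every array. Fgf5 was not above the floor on any array. Its deposited intensities were 10.3 in Akt12 cells without LIF and 1.3 in Akt12 cells with LIF, and 10.9 in control cells without LIF and 10 in control cells with LIF. None of these exceeded 14.9, the highest deposited value among 19 probe sets for transcripts that mouse cells lack, so no order of Fgf5 levels can be read.

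**Figure D1:**
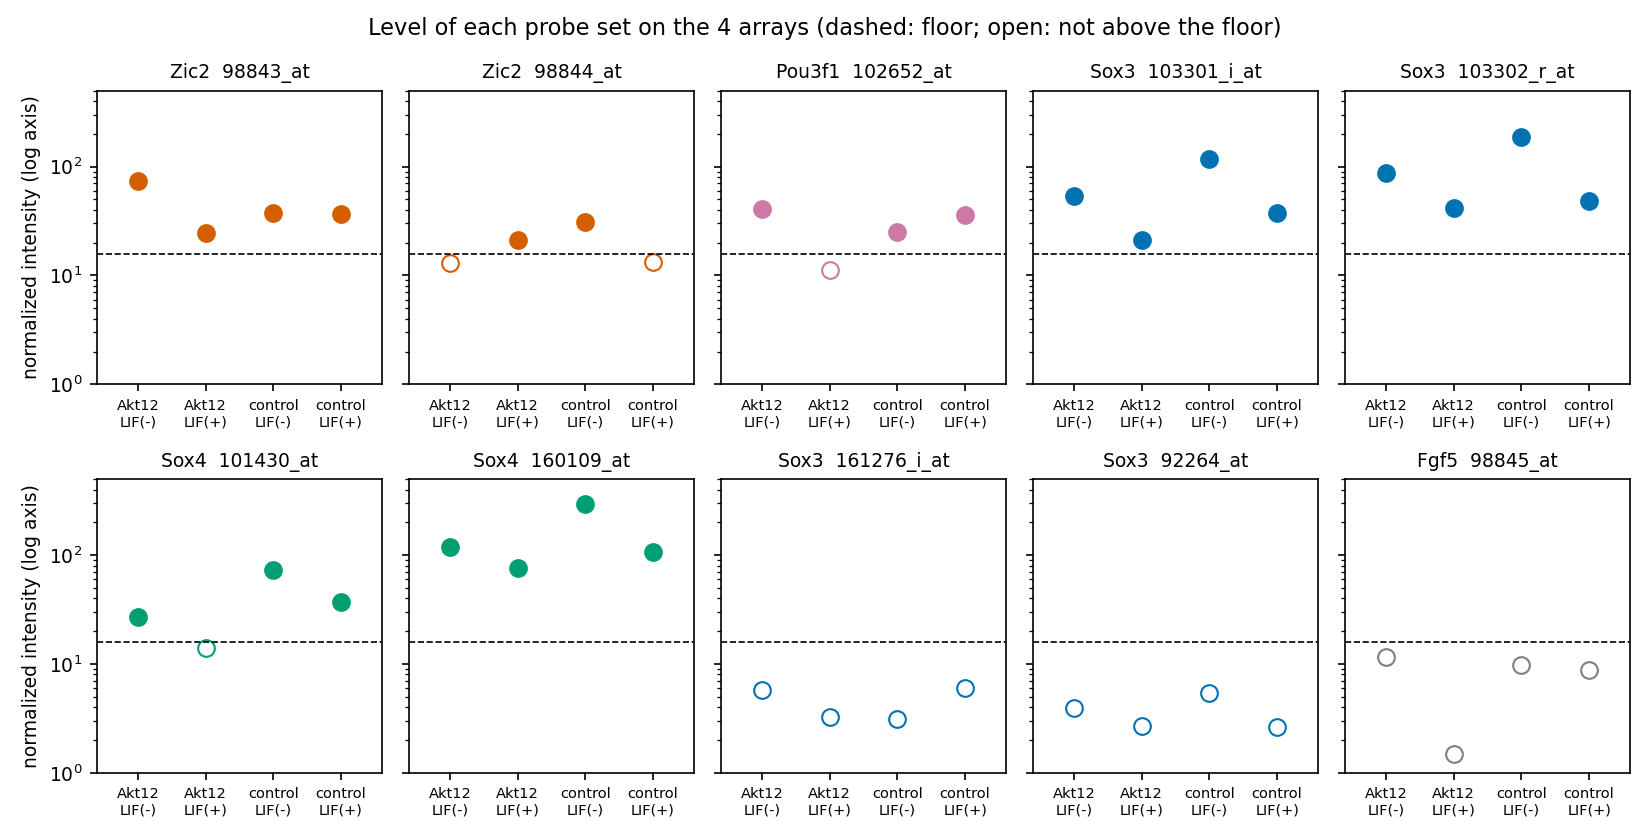
Normalized intensity (log axis, no unit) of the 10 probe sets on the 4 arrays, 1 point per array, with the floor of 15.78 as a dashed line and open circles for levels not above it. The Sox3 and Sox4 probe sets above the floor are highest in control cells without LIF, Zic2 98843_at and Pou3f1 are highest in Akt12 cells without LIF, and 3 probe sets (2 of Sox3 and the 1 of Fgf5) stay under the floor throughout.

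As no group has a replicate, the order of levels was read against the spread between probe sets of 1 gene. The log2 differences of such probe sets had an SD of 0.35 around the mean of their gene for LIF withdrawal in Akt12 cells (829 genes) and 0.41 in control cells (827 genes). This spread covers differences between probe sets and not between cultures. The same SD was 0.36 for Akt12 against control cells with LIF (847 genes). It was not computed for Akt12 cells without LIF against control cells with LIF. For Sox4 160109_at the levels of those last groups, neighbours in the order, lay 0.18 apart on the log2 scale. That is less than each of these SDs. For Sox3 103302_r_at the levels of Akt12 cells with LIF and control cells with LIF lay 0.21 apart, and for Pou3f1 those of Akt12 cells without LIF and control cells with LIF 0.18 apart, again less. For Zic2 98843_at the neighbours within these SDs were control cells without LIF and control cells with LIF.

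In Akt12 cells, 4 of the 7 measured probe sets were at least 2-fold higher without LIF and none was 2-fold lower, among 7918 probe sets of which 2.87% were higher and 3.51% lower. The 4 were Zic2 98843_at, Pou3f1 and both measured probe sets of Sox3. In control cells, 3 of the 7 were at least 2-fold higher without LIF and none lower, among 7985 probe sets of which 7.19% were higher and 6.19% lower. Those 3 were both measured probe sets of Sox3 and Sox4 160109_at. The median log2 difference of the 7 was 1.07 in Akt12 cells and 0.98 in control cells, against 0.01 and -0.02 over all probe sets measured. The count in Akt12 cells was 0 with a floor at the 60th percentile, which left 4 probe sets measured, and also 0 with a pseudocount of 32 in place of the floor. The count in control cells was 5 with 2% trimmed mean scaling. The 2 probe sets at least 2-fold higher without LIF in both lines, a pattern present in 0.788% of 7486 probe sets, were those of Sox3.

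**Figure D2:**
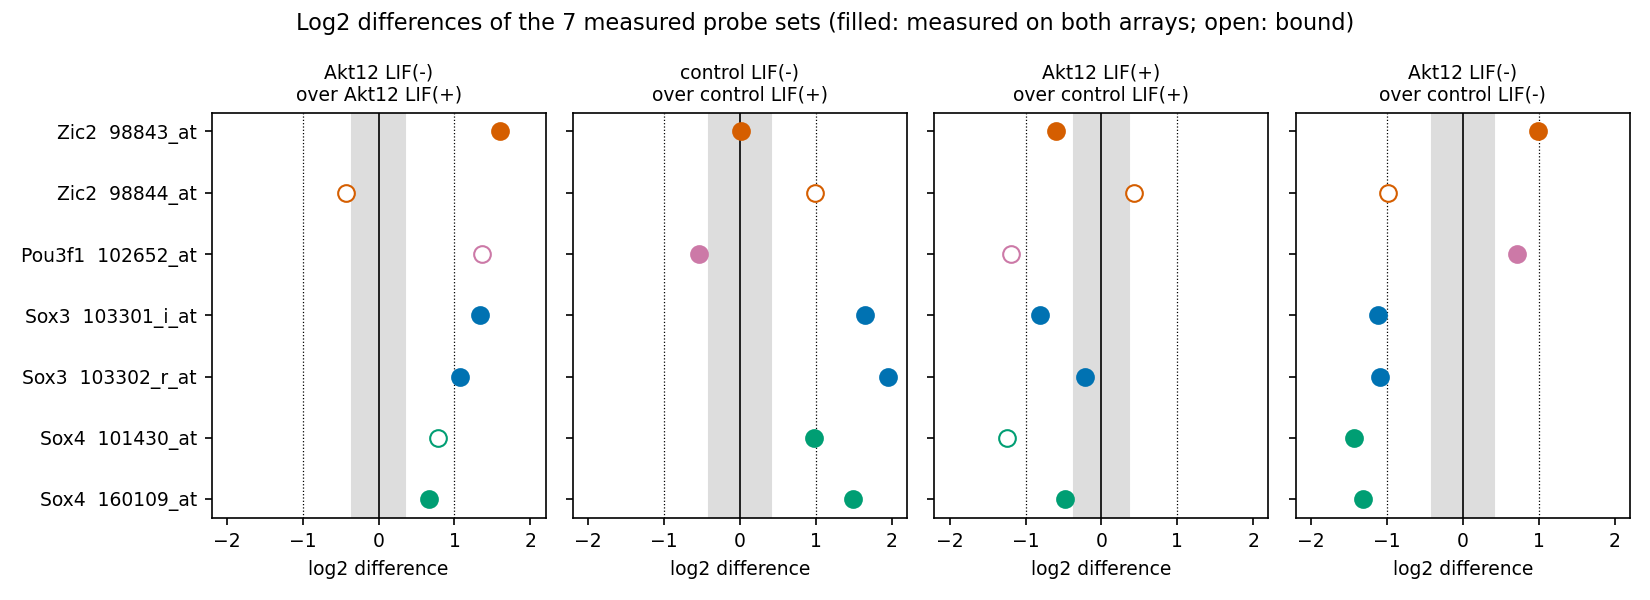
Log2 difference (x axis) of the 7 probe sets above the floor on 1 or both arrays of a pair, for the 4 comparisons. The grey band is 1 SD of the spread between probe sets of 1 gene, dotted lines mark a 2-fold difference, and open circles are bounds. Sox3 and Sox4 lie right of 0 in both LIF comparisons and left of 0 in both comparisons of Akt12 with control cells.

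A model with a term for LIF and a term for the line was fitted with limma to the 8417 probe sets above the floor on at least 1 array, so that the difference between the lines' responses served as the error. For LIF withdrawal over both lines it called 0 of 8417 probe sets (0%) at an adjusted p of 0.05, and 648 (7.7%) had an unadjusted p under 0.05. The Sox3 probe sets had log2 differences of 1.5 ± 0.30 (SE) for 103301_i_at and 1.51 ± 0.34 for 103302_r_at, with adjusted p of 0.293 and 0.34 in limma. Those of Sox4 were 1.08 ± 0.33 for 160109_at and 0.88 ± 0.29 for 101430_at, with limma adjusted p of 0.51 and 0.553. Zic2 98843_at (0.80 ± 0.42) and Pou3f1 (0.42 ± 0.47) had limma adjusted p of 0.728 and 0.939. No difference after LIF withdrawal therefore passed this test, which has 1 residual degree of freedom per probe set and measures the spread between these 4 arrays only.

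The responses of the lines were set against each other directly. The response of Akt12 cells minus that of control cells was 1.58 on the log2 scale for Zic2 98843_at, above 97.1% of the 7486 probe sets measured in both lines. For Pou3f1 it was a bound, at least 1.90, since the level in Akt12 cells with LIF was not above the floor. For Zic2 98844_at it rests on bounds in both lines, at -1.42 or further below 0. It was -0.31 and -0.89 for the Sox3 probe sets and -0.82 for Sox4 160109_at. For Sox4 101430_at it was a bound of at least -0.19, which does not fix its side of 0. Over all probe sets the median was 0.03 and the SD 0.81. The difference between the lines' responses was not tested, since the 4 arrays leave no residual error for it.

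**Figure D3:**
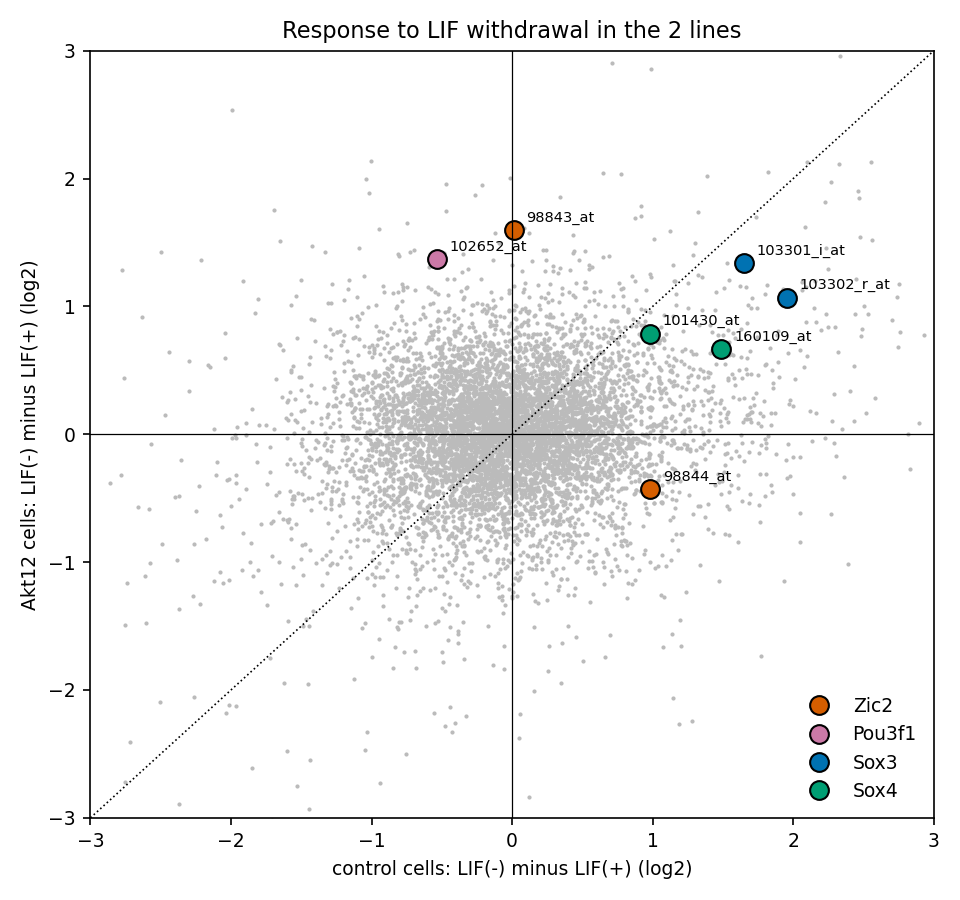
Log2 difference after LIF withdrawal in Akt12 cells (y axis) and in control cells (x axis) for 7486 probe sets in grey and the 7 measured probe sets of Zic2, Pou3f1, Sox3 and Sox4 in colour, with equality as a dotted line. Sox3 and Sox4 lie in the upper right part, Pou3f1 in the upper left and the pair of Zic2 probe sets apart from each other; the axes end at 3 on the log2 scale, beyond which 26 probe sets fall.

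The Akt12 line was also compared with the control line in each medium. With LIF, 2 of the 7 probe sets were at least 2-fold lower in Akt12 cells and none was 2-fold higher, among 7930 probe sets of which 3.51% were lower and 3.28% higher. These were Pou3f1, not above the floor in Akt12 cells against 36.0 in control cells (at least 2.28-fold lower), and Sox4 101430_at, not above the floor in Akt12 cells against 37.35 in control cells (at least 2.37-fold lower). The other Sox4 probe set was 1.40-fold lower in Akt12 cells. Without LIF, 4 of the 7 were at least 2-fold lower in Akt12 cells and none was 2-fold higher, among 7991 probe sets of which 7.85% were lower and 5.59% higher. They were the Sox3 probe sets, 2.17-fold and 2.14-fold lower, and the Sox4 probe sets, 2.70-fold lower for 101430_at and 2.48-fold lower for 160109_at. Zic2 98843_at had 73.8 in Akt12 cells and 37.2 in control cells without LIF (1.98-fold higher). The other Zic2 probe set, 98844_at, went the opposite way, not above the floor in Akt12 cells against 31.2 in control cells (at least 1.98-fold lower). With LIF, 98843_at was 1.51-fold lower and 98844_at at least 1.35-fold higher in Akt12 cells. Pou3f1 had 40.7 in Akt12 cells and 24.8 in control cells without LIF (1.64-fold higher). With a floor at the 60th percentile, or with the pseudocount of 32, the count with LIF was 0, and with that pseudocount the count without LIF was 1. These comparisons share their arrays with those of LIF withdrawal.

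Over both media, limma called 5 of 8417 probe sets for the difference between the lines (0.0594%), all lower in Akt12 cells, and 692 (8.22%) had an unadjusted p under 0.05. The count was 0 in 4 of the alternative settings and 17 to 35 in the other 4. None of the 5 belonged to these genes. Sox4 101430_at had a log2 difference of -1.34 ± 0.29 (SE) and Sox4 160109_at of -0.90 ± 0.33, with limma adjusted p of 0.249 and 0.532. The Sox3 probe sets had -0.97 ± 0.30 and -0.65 ± 0.34, with limma adjusted p of 0.42 and 0.748. With the values as deposited, 5 of the 7 probe sets were 2-fold lower in Akt12 cells with LIF, when the median of all probe sets lay at -0.51 on the log2 scale.

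Of the 7 measured probe sets, 6 had their lowest level in Akt12 cells with LIF, as had 21.8% of 8417 probe sets. The exception was Zic2 98844_at. This pattern was looked for after seeing the data. It held for 2 of 5 once the floor was raised to the 60th percentile. The 5 probe sets with their highest level in control cells without LIF were those of Sox3 and Sox4 and Zic2 98844_at, and 30.2% of all probe sets had it there. Probe sets of 1 gene share their target, so the 7 stand for 4 genes. The signal ratio of the 3' to the 5' actin probe set, which reflects how intact and evenly labelled the RNA was, stood at 2.48 in Akt12 cells without LIF and 3.04 in Akt12 cells with LIF, and 1.66 in control cells without LIF and 2.33 in control cells with LIF. Its extremes fell on the same arrays as those of Sox3 and Sox4. The Gapdh ratio was 2.46 in Akt12 cells without LIF and 3.05 in Akt12 cells with LIF, and 3.19 in control cells without LIF and 3.03 in control cells with LIF. Its highest value was thus on the array of control cells without LIF, where the actin ratio was lowest, and its lowest on that of Akt12 cells without LIF. The part of RNA quality in these levels was not tested.

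Sums over markers of mesoderm, trophoblast and fibroblasts also stood highest in control cells without LIF. Of all genes measured, LIF withdrawal left 3.01% higher by 2-fold or more and 3.65% lower in Akt12 cells, and 7.39% higher and 6.4% lower in control cells. Summed over 22 primitive streak and mesoderm markers on the array, the normalized intensity was 849 in Akt12 cells without LIF and 752 in Akt12 cells with LIF, and 4874 in control cells without LIF and 1241 in control cells with LIF. Of these markers, 3 of 15 measured were higher by 2-fold or more without LIF in Akt12 cells and 1 was lower, and 10 of 17 were higher and none lower in control cells. Gsc, Mesp1, Foxc1, Foxf1 and Meox1 were at the floor on all arrays. In control cells without LIF, Tagln (1319), Acta2 (904) and Actc1 (790) made up much of the sum. The sum over 17 trophoblast markers was 2224 in Akt12 cells without LIF and 1570 in Akt12 cells with LIF, and 5034 in control cells without LIF and 2370 in control cells with LIF, with Elf5 at the floor throughout. Of these, 1 of 13 measured was higher in Akt12 cells and 6 of 15 in control cells, with none lower. Id2 made up 2178 of the sum in control cells without LIF. For 18 fibroblast and feeder markers it was 794 in Akt12 cells without LIF and 743 in Akt12 cells with LIF, and 1326 in control cells without LIF and 687 in control cells with LIF, with Postn, Pdgfrb, Ddr2 and Cd44 at the floor throughout. Of the fibroblast markers, 1 of 10 measured was higher in Akt12 cells and 4 of 13 in control cells, with none lower. Not every fibroblast marker followed the sum. Fbln1 was lowest in control cells without LIF, at 93.75, and highest in Akt12 cells without LIF, at 206. The sum over 22 endoderm markers was 2567 in Akt12 cells without LIF and 3329 in Akt12 cells with LIF, and 3059 in control cells without LIF and 1544 in control cells with LIF, with Foxa2, Hnf4a, Ttr and Apoa1 at the floor throughout. Apoe, an apolipoprotein gene, made up 1436 of the sum in Akt12 cells with LIF, against 484 in Akt12 cells without LIF, and 736 in control cells without LIF and 453 in control cells with LIF. Of the endoderm markers, 2 of 18 measured were higher and 2 lower in Akt12 cells, and 6 of 16 were higher and 1 lower in control cells. Between the lines with LIF, 9 of 17 endoderm markers were at least 2-fold higher in Akt12 cells and none was lower. Their median log2 difference was 1.15, and over all genes 3.5% were higher and 3.64% lower. Without LIF, 3 of 17 were higher and 1 lower in Akt12 cells, against 5.87% and 8.12% over all genes. Whether the share of such cells moved the Sox3 and Sox4 levels was not tested, and in bulk RNA fewer cells of a type and less RNA per cell cannot be told apart. Sox3 is also a gene of neural progenitors. Of 11 neuroectoderm markers measured, 1 was at least 2-fold higher and 3 were lower without LIF in Akt12 cells, and none was higher and 4 were lower in control cells. The 1 higher was Gap43 (2.91-fold). Nes was 1.77-fold higher without LIF in Akt12 cells and 1.61-fold higher in control cells, and its highest and lowest arrays were those of Sox3. Mapt was 6.73-fold lower without LIF in Akt12 cells and at least 2.89-fold lower in control cells. The sum over the 22 neuroectoderm markers on the array was 1166 in Akt12 cells without LIF and 1450 in Akt12 cells with LIF, and 1153 in control cells without LIF and 1518 in control cells with LIF, and 9 of them, among them Hes5, Neurog1 and Dcx, were at the floor on all arrays.

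Among 32 further genes of the formative and primed epiblast, 23 were on the array, and the lines differed in how they stood after LIF withdrawal. The list was written with earlier results of these data known, so it gives no independent support. In Akt12 cells 9 of 22 measured were higher by 2-fold or more without LIF and none was lower. The median log2 difference was 0.82. In control cells 4 of 23 were higher and 10 lower, with a median of -0.46. Over all genes measured the medians were 0.01 in Akt12 cells and -0.03 in control cells. Pim2, a serine/threonine kinase gene, had a level of 350 in Akt12 cells without LIF and 60.2 in Akt12 cells with LIF (5.82-fold higher), and of 60.4 in control cells without LIF and 241 in control cells with LIF (3.99-fold lower). Fst, which encodes the activin antagonist follistatin, was 3.08-fold higher without LIF in Akt12 cells and 4.25-fold higher in control cells. Lower without LIF in control cells were the DNA methyltransferase gene Dnmt3a (5.64-fold), the chromatin factor gene Utf1 (5.43-fold) and the hormone precursor gene Trh (4.91-fold). Utf1 is a gene of naive cells as well. The cadherin gene Cdh2 was 3.17-fold higher without LIF in control cells and at least 2.22-fold higher in Akt12 cells. Of the 22 genes measured in both lines, 18 had a higher response in Akt12 cells than in control cells, as had 51.9% of 5671 genes. Some of these responses are bounds, as for Cdh2, which leaves the order of the lines open for such genes. With LIF, 9 of 21 were at least 2-fold lower in Akt12 cells than in control cells and none was higher, with a median log2 difference of -0.93, against 3.64% lower and 3.5% higher over all genes. Without LIF, 8 of 23 were higher in Akt12 cells and 4 lower, with a median of 0.43, against 5.87% higher and 8.12% lower over all genes. The counts for LIF withdrawal, for the responses and between the lines share the same 4 arrays, so they are not separate findings. The response was also higher in Akt12 cells for Zic2 98843_at and Pou3f1, and lower for both measured Sox3 probe sets, Sox4 160109_at and Zic2 98844_at.

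Among 32 paralogs of these genes on the array, 15 were at the floor on every array, including Pou3f2, Pou3f3, Pou3f4, Zic1 and Zic4. Sox11, the SoxC relative of Sox4, had a level of 219.7 in Akt12 cells without LIF and 72.8 in Akt12 cells with LIF (3.02-fold higher), and of 601 in control cells without LIF and 276 in control cells with LIF (2.18-fold higher). Its highest and lowest arrays were those of Sox4. Sox2, the SoxB1 relative of Sox3, went the other way, with 1538 in Akt12 cells without LIF and 2330 in Akt12 cells with LIF (1.52-fold lower), and 472 in control cells without LIF and 2239 in control cells with LIF (4.74-fold lower). Sox1 was above the floor only in Akt12 cells without LIF, at 17.95. Fgf4, the main fibroblast growth factor of embryonic stem cells, was 1.40-fold lower without LIF in Akt12 cells and 5.16-fold lower in control cells. Fgf8 was above the floor only in control cells without LIF, at 39.2.

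Most naive pluripotency genes stood opposite to Sox3 in both lines. Of 17 measured, 13 were at least 2-fold lower without LIF in Akt12 cells and 12 in control cells, with none 2-fold higher in either and median log2 differences of -1.69 and -2.37. Klf5 was 1.12-fold higher without LIF in control cells. Tcl1, which encodes a coactivator of Akt, was 8.74-fold lower without LIF in Akt12 cells and 6.04-fold lower in control cells. Nr0b1, a nuclear receptor gene, was 5.59-fold lower without LIF in Akt12 cells and at least 20.9-fold lower in control cells. Between the lines without LIF, 7 of 17 naive genes were at least 2-fold higher in Akt12 cells and 2 lower. With LIF, 4 of 17 were higher in Akt12 cells and 1 lower. Of the FGF receptor and ERK pathway genes, none of 18 measured was 2-fold different after LIF withdrawal in Akt12 cells, and in control cells 1 of 16 was higher (Fos, 4.13-fold) and 2 were lower (Fgf4, and Sos1 by 2.15-fold), which is near the share over all genes in both lines. Between the lines, 2 of 17 were higher and 2 lower in Akt12 cells without LIF, against 5.87% higher and 8.12% lower over all genes. With LIF, 2 of 18 were higher and 3 lower, against 3.5% and 3.64%. Fos was 4.79-fold and Egr1, another gene induced early by ERK, 2.06-fold higher in Akt12 cells than in control cells with LIF. Without LIF, Fos was 1.55-fold lower and Egr1 1.40-fold higher in Akt12 cells. Ier3 was 3.20-fold lower in Akt12 cells without LIF and 2.17-fold lower with LIF, and Myc was 2.45-fold lower with LIF. Dusp6, a phosphatase gene induced by ERK, had 171 in Akt12 cells and 470 in control cells without LIF (2.75-fold lower in Akt12 cells), and 117 in Akt12 cells and 266 in control cells with LIF (2.26-fold lower).

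**Figure D4:**
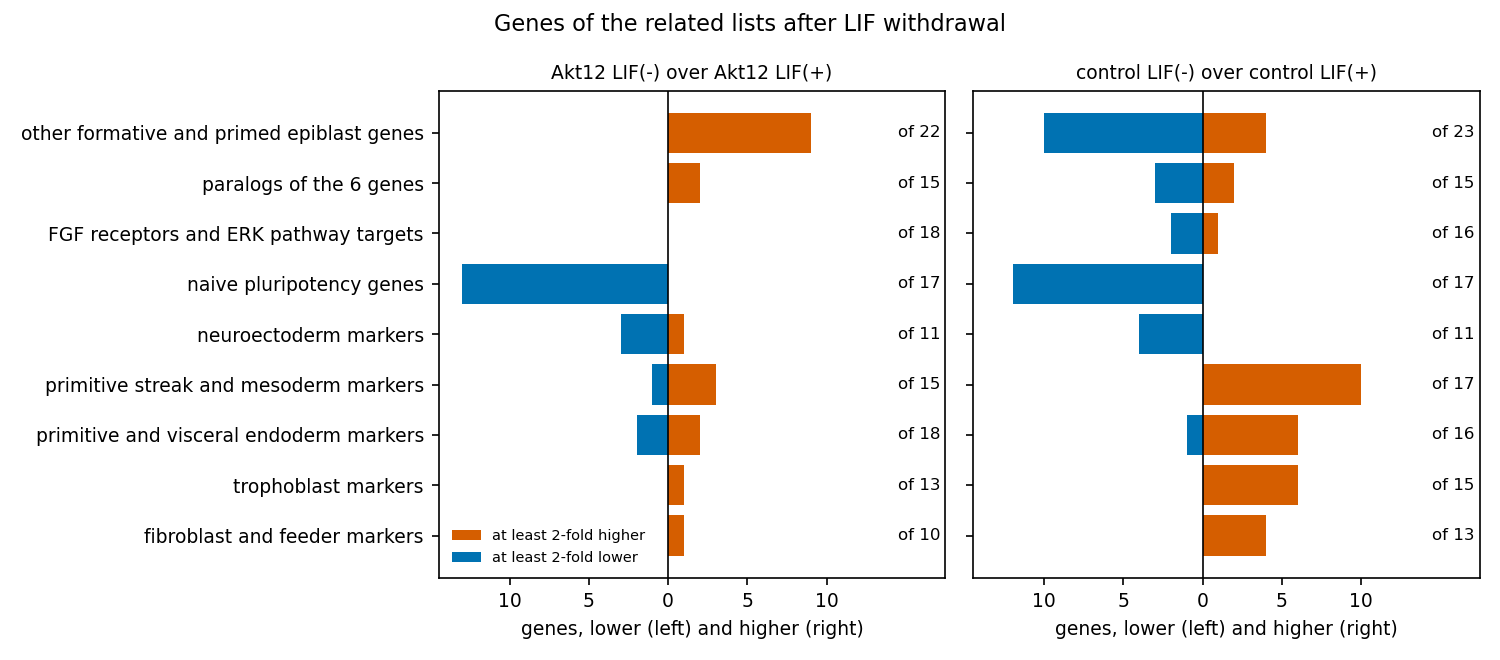
Number of genes of each list at least 2-fold higher (orange, right) or lower (blue, left) without LIF in Akt12 cells and in control cells, with the number measured at the right edge of each panel. The further formative and primed epiblast genes have 9 higher and 0 lower in Akt12 cells, against 4 higher and 10 lower in control cells. All lists were written with earlier results of these data known.

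Genes whose course over the 4 arrays was most like that of a measured probe set were sought among 5026 genes above the floor on all arrays, by the root mean square difference of centred log2 levels. For Sox4 160109_at they were the tight junction gene Tjp1 (0.0724), the EGF receptor inhibitor gene Errfi1 (0.0737) and Tax1bp3 (0.0746). For Sox3 they were the syndecan gene Sdc2 (0.101), Tmem123 (0.127) and Osbpl5 (0.129) on 103301_i_at, and Ptpn9 (0.149), Oat (0.151) and Arid3a (0.176) on 103302_r_at. For Zic2 98843_at they were Dhcr7, which encodes an enzyme of cholesterol synthesis (0.106), Lmo2 (0.157) and Rac2 (0.162). With 4 points and 5026 genes, such likeness is a description of these arrays only.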

How the data were processed

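The authors deposited 1 linear intensity for each probe set and array. How they computed and scaled it is not stated in the labels or the file. The 2% trimmed means of the arrays differed by up to 1.51-fold, so 12422 probe sets, array controls left out, were brought to a common distribution by limma's quantile normalization (version 3.58.1, R 4.3.3). Values under the 40th percentile (15.78) were set to it, and log2 was taken. The platform annotation gave a single symbol to 10833 probe sets, several to 396 and none to 1193, and symbols were updated through gene identifiers in RefSeq (10817 matched). For gene lists, each gene was taken from its probe set of highest mean log2 level. The additive limma model (lmFit, eBayes, two-sided, Benjamini-Hochberg over 8417 probe sets) had 1 residual and 5.56 prior degrees of freedom. For LIF withdrawal over both lines, simulated with 8417 probe sets, it called 49% of 100 probe sets changed 2-fold, 100% of 100 changed 4-fold and 11 of 8217 unchanged. That simulation gave both lines the same effect and every probe set the same noise, which was set by hand. Its shares therefore do not give the share that would be called on these arrays.

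The 6 genes, the 9 lists and the tests were chosen with earlier results of these data known. The rule for names took every probe set of the 6 genes, 8 of their paralogs where measured, at most 3 genes higher and 3 lower of each list and comparison, and the 3 genes most alike in course. Precision is limited by there being 4 arrays.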

Additional observations from a re-analysis of the deposited data

Results flagged for a closer look

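The lines went in opposite directions after LIF withdrawal on the Pou3f1 probe set, which was at least 2.58-fold higher without LIF in Akt12 cells and 1.45-fold lower in control cells, a difference of at least 1.90 between the log2 responses. They also did so on Zic2 98844_at, at least 1.35-fold lower without LIF in Akt12 cells and at least 1.98-fold higher in control cells, a difference of -1.42 that rests on bounds in both lines. Opposite signs were present in 46.9% of the 7486 probe sets measured in both lines, and the difference between the responses was not tested.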

How the results depend on the processing

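No paired analysis was possible because each group is 1 array with no replicate number to pair; the limma model's term for the line already sets the arrays of 1 line against each other. No array could be left out of that model, which then keeps no residual degree of freedom. Under a floor raised to the 60th percentile, the count of probe sets of these genes at least 2-fold different was 0 for LIF withdrawal in Akt12 cells and 0 for Akt12 against control cells with LIF. With a pseudocount of 32 in place of the floor both counts were 0, and that for Akt12 against control cells without LIF was 1. Scaling by the 2% trimmed mean gave 5 for LIF withdrawal in control cells, and the values as deposited gave 5 for Akt12 against control cells with LIF. The median difference between the responses of the lines, -0.31 over the 7 probe sets, was -1.07 over the 3 left under the 60th percentile floor. The limma count for the line was 0 with a floor at the 60th or the 20th percentile, with the pseudocount or scaled to the hybridization controls, 17 with trimmed mean scaling, 30 with the values as deposited, 19 with an intensity trend and 35 over probe sets above the floor on all arrays. The limma count for LIF was 1 with an intensity trend and 27 over probe sets above the floor on all arrays. In all 9 settings limma called none of the probe sets of these genes; the lowest adjusted p for LIF was 0.0865 over probe sets above the floor on all arrays, and for the line 0.0955 with the values as deposited. The count with the lowest level in Akt12 cells with LIF, examined after seeing the data, was 2 of 5 with a floor at the 60th percentile. It was 6 of 7 without the array of control cells without LIF. None of the 7 was lowest on that array, so leaving it out could not lower the count. Of 193 log2 differences of single probe sets under these alternatives, 166 moved by less than the spread between probe sets of 1 gene, 27 moved by more and none that was 2-fold reversed. The cause of these shifts was not tested. Levels near the floor limit Zic2, Pou3f1 and Sox4 101430_at.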
